A study of Mus musculus with 6 samples.

Results

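The genes of microfibrils and elastic fibres were examined in the inner enamel epithelium (IEE) of the mandibular first molar, where 10 named genes were looked up by symbol in a table of 18152 genes and all 10 were present. They are Fbn1, Fbn2, Mfap2, Mfap4, Mfap5, Eln, Emilin1, Fbln1, Fbln2 and Fbln5. The list was proposed with values of the comparison described here in view, so its levels and differences are a description without a test. Libraries came from embryos at E18.5 of lines on a C57BL/6J background, with 3 libraries of genotype Kdf1 fl/fl and 3 in which K14-Cre was added to the same floxed alleles (K14-Cre;Kdf1 fl/fl). Both groups carried the floxed Kdf1 alleles, and the sample labels call the first group control or WT and the second cKO. The names control and cKO are used for single libraries below. The Cre recombinase is driven by the keratin 14 promoter and is thus directed to epithelial cells. The IEE was cut from frozen head sections with a laser, and cells at the border of the cut can be included. Each library is labelled as a biological replicate, and whether tissue of several embryos was pooled is not given in the sources used here.

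Microfibrils are thin extracellular filaments built from fibrillins, on which microfibril-associated glycoproteins are carried. Tropoelastin, the product of Eln, is deposited on them with the help of fibulins and emilins and is then cross-linked by lysyl oxidases into elastic fibres. In the tooth germ such fibres are chiefly a product of mesenchyme, vessels and the dental follicle, while fibrillins and fibulins also lie along basement membranes beneath epithelium.

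Library totals ranged from 14713918 to 16675133 estimated counts after rounding. Kdf1 (gene identifier 69073) was at 52.5, 44.3 and 52.7 CPM (counts scaled to a common library size) in control replicates 1 to 3, and 1 count in all was assigned to it in the 3 cKO libraries. Of 10 dental epithelium markers, all were present in every library, and 9 had a negative fitted log2 fold change in cKO. Amelx, the gene of amelogenin and the most abundant of them, ran from 4017 to 32209 TPM (the authors' value per length, scaled within each library) in control and from 9.45 to 699 TPM in cKO libraries. Summed TPM of 10 dental mesenchyme markers was 614, 1272 and 565 in control replicates 1, 2 and 3, and 1961, 1831 and 1163 in cKO replicates 1, 2 and 3. By TPM, control replicate 2 was the highest control library and cKO replicate 3 the lowest cKO library for all 10 of these markers. In CPM the lowest cKO library for Pdgfra was instead replicate 1, at 219.5 against 230.1 in replicate 3.

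Upstream sequence was taken from RefSeq (GRCm38.p6) for the members that have a window there, which was the case for 6 of 10. It is shown for Mfap2, Fbln5 and Fbln1, the members with an annotated window that begins at the outermost start of the gene. Expression levels played no part in this choice. Each run is the 250 bases before the start, written 5′ to 3′ on the strand of the gene. Capitals mark the GC box GGGCGG, the CCAAT box and the E-box CANNTG, read on both strands, and in Fbln5 a CCAAT box and an E-box overlap.
Mfap2, chr4:141010174-141010423, plus strand: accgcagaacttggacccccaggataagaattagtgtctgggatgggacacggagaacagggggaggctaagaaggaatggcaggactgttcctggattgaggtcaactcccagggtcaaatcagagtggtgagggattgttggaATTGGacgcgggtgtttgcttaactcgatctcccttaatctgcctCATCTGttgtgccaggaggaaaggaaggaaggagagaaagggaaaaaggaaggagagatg
Fbln5, chr12:101819120-101819369, minus strand: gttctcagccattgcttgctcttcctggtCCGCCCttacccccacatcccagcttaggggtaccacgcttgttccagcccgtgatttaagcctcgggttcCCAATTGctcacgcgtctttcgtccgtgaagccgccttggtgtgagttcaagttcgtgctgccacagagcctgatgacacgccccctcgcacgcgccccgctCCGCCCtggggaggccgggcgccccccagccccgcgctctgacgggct
Fbln1, chr15:85205699-85205948, plus strand: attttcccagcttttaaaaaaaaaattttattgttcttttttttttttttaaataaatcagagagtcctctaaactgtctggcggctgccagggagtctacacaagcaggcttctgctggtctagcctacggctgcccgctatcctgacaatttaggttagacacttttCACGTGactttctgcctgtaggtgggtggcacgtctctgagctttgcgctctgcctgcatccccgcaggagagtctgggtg

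The TATA box TATAAA, read on both strands, was found in 0 of the 9 RefSeq windows of 300 bases that belong to these 6 genes, and 13.6% of all 32851 windows in the table hold it. GGGCGG was found in 5 of the 9 windows against 35.7% of all windows, CCAAT in 3 against 37.4%, and CANNTG in 7 against 72.3%. The GC content of the printed stretches was 51.2% for Mfap2, 65.2% for Fbln5 and 46.4% for Fbln1. A match describes letters only, and the start site used in these libraries was not measured.

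Per length, the 10 genes covered a wide range of levels in control IEE. Fbln1, a fibulin of basement membranes and elastic fibres, stood first with 551 ± 87.6 TPM (SD, n = 3). Mfap2, which encodes the microfibril-associated glycoprotein MAGP-1, followed with 285 ± 39.5 TPM, and Fbln2 with 170 ± 30.5 TPM (169.50 before rounding). These 3 genes lay above 95.18% of all genes in the table by control TPM. None of the 3 overlapped in TPM with its next lower neighbour in the control libraries.

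Mfap4 was at 43.6 ± 39.6 TPM, Fbn2 at 28.3 ± 32.4 TPM and Fbln5 at 23.5 ± 3.86 TPM in control (SD, n = 3). Emilin1 was at 22.3 ± 16.0 TPM, Fbn1 at 18.52 ± 9.77 TPM and Eln at 13.1 ± 4.90 TPM in the same libraries. Each of these 6 overlapped in control with its neighbour in the order, so their order is not resolved by 3 libraries. Mfap5, which encodes MAGP-2, was last with 0.233 ± 0.110 TPM and was close to the limit of detection. In cKO the order began with Fbln1 at 700 ± 139.99 TPM (700.45 before rounding), Mfap2 at 585 ± 84.0 TPM and Mfap4 at 272 ± 193 TPM, so that Mfap4 stood above Fbln2 at 135 ± 25.0 TPM.

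**Figure D1:**
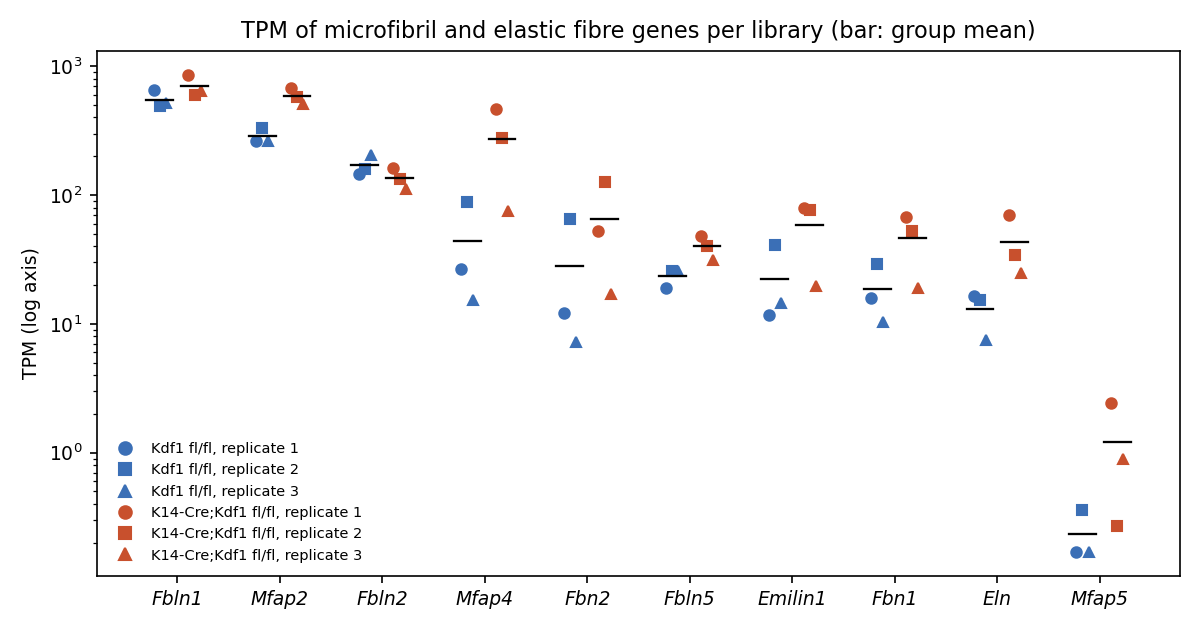
TPM (log axis) of the 10 genes in each library, ordered by the control mean, with control (Kdf1 fl/fl) in blue, cKO (K14-Cre;Kdf1 fl/fl) in red, symbols for the replicate number and bars for group means. Fbln1 at 551 TPM and Mfap2 at 285 TPM lead the control means, and the libraries of Mfap4 and Fbn2 spread far more widely than those of Mfap2.

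Fitted across all genes with edgeR's quasi-likelihood test, 8 of the 9 members tested had a positive log2 fold change in cKO, as had 49.5% of all genes, and 1 a negative one. It was at least 1 in 5 members and in 9.23% of all genes. Their median was 1.20, against 0.00 (−0.00426) over all 14131 genes tested. Mfap5 was not tested, since it did not pass the filter on low counts. The study's criterion was used for calls, namely a 2-fold difference in either direction (1 on the log2 scale) with an adjusted p no greater than 0.05. The study names no test for this criterion, so the calls given here need not match its own. The fits called 61 genes in edgeR and 980 in DESeq2. By the criterion 0 members were called in edgeR, where 0.432% of all genes were called, 0.142% as higher in cKO. In this fit 5 members had an unadjusted p under 0.05, as had 24.5% of all genes. DESeq2 called 3 members, Mfap4, Fbn1 and Eln, against 6.94% of all genes. In edgeR with a block for replicate number, 4 members were called, Mfap4, Fbn1, Fbn2 and Eln, against 6.09% of all genes. All calls were in the direction of higher levels in cKO. Since the list was proposed with this contrast in view, nothing is read from these counts.

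The fibrillins form the backbone of the microfibril, and Fbn2 is the form typical of the embryo. Fbn1 was at 88.7, 155 and 61.8 CPM in control replicates 1, 2 and 3 and at 339.7, 284 and 109 CPM in cKO replicates 1, 2 and 3. Control replicate 2 was above cKO replicate 3, so the groups overlapped. The log2 fold change of Fbn1 was 1.26 (SE 0.48). Fbn2 was at 71.1, 368 and 45.9 CPM in control and at 281, 729.7 and 103 CPM in cKO, in the same order. Here the libraries numbered 2 were the highest of both groups, and the control one exceeded 2 of the 3 cKO libraries.

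The fitted log2 fold change of Fbn2 was 1.20 (SE 0.93), and it moved with the libraries numbered 2 when only 1 of them was left out. It was 0.27 without cKO replicate 2 and 2.66 without control replicate 2. Within each replicate number the cKO library was higher, by log2 ratios of 1.98, 0.99 and 1.17 in numbers 1, 2 and 3.

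The balance of the fibrillins differed most by replicate number. The ratio of Fbn2 to Fbn1 in TPM was 0.757, 2.24 and 0.698 in control replicates 1, 2 and 3, and 0.777, 2.41 and 0.889 in cKO replicates 1, 2 and 3. Fbn2 was thus above Fbn1 only in the libraries numbered 2, in both genotypes. Within each number the ratio was also higher in the cKO library than in the control library. The same libraries held the most Barx1, a transcription factor gene of molar mesenchyme, with 132 TPM in control replicate 2 and 368 TPM in cKO replicate 2, against 33.0 to 40.8 TPM in the other controls and 98.5 to 159 TPM in the other cKO libraries. Of the same marker list, Prrx2, Twist2, Lhx6 and Pdgfra were also highest by TPM in the libraries numbered 2 of both groups. Prrx1, Twist1, Msx1, Lhx8 and Vim were instead highest in replicate 1 among the cKO libraries. Barx1 was named after its values were seen, and its part in the ratio was not tested.

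**Figure D2:**
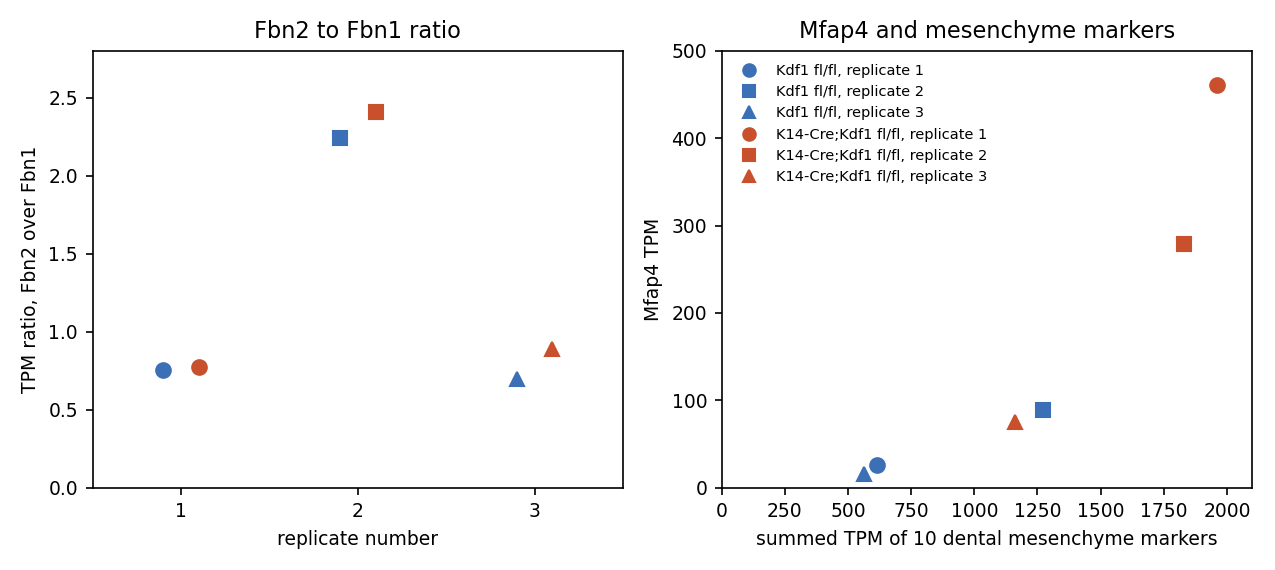
Left, the TPM ratio of Fbn2 to Fbn1 by replicate number, where only the libraries numbered 2 lie above 1, at 2.24 and 2.41. Right, Mfap4 TPM against the summed TPM of 10 dental mesenchyme markers in the 6 libraries, where control replicate 2 and cKO replicate 3 lie close together at 1272 and 1163 on the horizontal axis.

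Among the microfibril-associated glycoproteins, Mfap2 was the steadiest member of the list. It was at 116, 138 and 126 CPM in control replicates 1 to 3 and at 269, 248 and 232 CPM in the cKO replicates. Every cKO library was above every control library, and the gap between the groups was larger than the range within either. Its log2 fold change of 0.98 (SE 0.12), or 1.97-fold, lay just under the limit of 1, with means of 249.6 ± 18.6 and 126.7 ± 10.7 CPM (SD, n = 3 per group). Over 14 alternative settings it stayed between 0.93 and 1.05.

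Mfap4 encodes a fibrinogen-related protein that binds elastin and collagen, and it differed more than any other member. It was at 19.5, 61.8 and 12.2 CPM in control replicates 1, 2 and 3 and at 304, 200.4 and 57.2 CPM in cKO replicates 1, 2 and 3. The groups overlapped, since control replicate 2 was above cKO replicate 3. The log2 fold change was 2.59 (SE 0.77), and 3.55 without control replicate 2. Mfap5 had 2, 4 and 2 counts in control and 25, 3 and 10 counts in cKO replicates 1 to 3. With at most 4 counts in any control library and 3 in cKO replicate 2, Mfap5 was at the edge of detection, since a count of 0 allows up to 3 counts.

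Eln, the gene of the elastic core itself, was at 34.0, 29.6 and 15.6 CPM in control replicates 1 to 3 and at 129.7, 67.1 and 50.0 CPM in the cKO replicates. All 3 cKO libraries were above all control libraries. The log2 fold change was 1.64 (SE 0.42), or 3.11-fold, and it remained between 1.17 and 1.92 over the 14 alternatives, the lowest being without cKO replicate 1. Emilin1, whose product lies between elastin and microfibrils, was at 22.6, 73.1 and 29.7 CPM in control and at 139, 142 and 38.0 CPM in cKO. Its groups overlapped through control replicate 2 and cKO replicate 3. Emilin1 had a fitted log2 difference of 1.35 (SE 0.60), and 2.02 without control replicate 2.

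The fibulins, which bridge tropoelastin, microfibrils and basement membranes, did not share a direction. Fbln5, required for elastic fibre assembly, was at 28.3, 36.3 and 40.0 CPM in control replicates 1 to 3 and at 63.0, 57.2 and 44.2 CPM in the cKO replicates, without overlap. The fitted log2 difference was 0.65 (SE 0.19). Fbln1 was at 853, 609 and 725 CPM in control and at 1027, 773 and 868 CPM in cKO, and the groups overlapped. Its log2 fold change of 0.29 (SE 0.18) was the smallest in size on the list, although the ratio within each replicate number was even, with log2 values of 0.27, 0.34 and 0.26.

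Fbln2 was the exception in direction. It was at 347, 361 and 529 CPM in control replicates 1, 2 and 3 and at 345, 313 and 273 CPM in cKO replicates 1, 2 and 3. In CPM all cKO libraries were below all control libraries, while in TPM the groups overlapped, since cKO replicate 1 at 161 TPM was above control replicates 1 and 2 at 145 and 159 TPM. In CPM control replicate 1 and cKO replicate 1 were nearly equal, with a log2 ratio of −0.01. The fitted log2 fold change was −0.41 (SE 0.19), and −0.19 without control replicate 3. The TPM ratio of Fbln2 to Fbln1 was 0.223, 0.326 and 0.397 in control and 0.187, 0.224 and 0.173 in cKO replicates 1, 2 and 3, so that cKO replicate 2 was level with control replicate 1.

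In all, the CPM of the groups did not overlap in 4 of the 9 members tested, as in 30.7% of all genes. Mfap2, Eln and Fbln5 were above control in every cKO library, where 14.5% of all genes were, and Fbln2 was below, where 16.2% of all genes were. The other 5 overlapped. Within replicate numbers, 8 of the 9 were higher in the cKO library of each number, as were 25.7% of all genes, and these 8 include the 5 that overlapped. Fbln2 was lower in the cKO library of each number, as were 27% of all genes. The labels do not say what a replicate number marks. The median log2 ratio over the 9 was 1.93, 0.88 and 0.81 in numbers 1, 2 and 3. In bulk tissue, fewer or more cells of a type cannot be told apart from less or more RNA per cell.

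**Figure D3:**
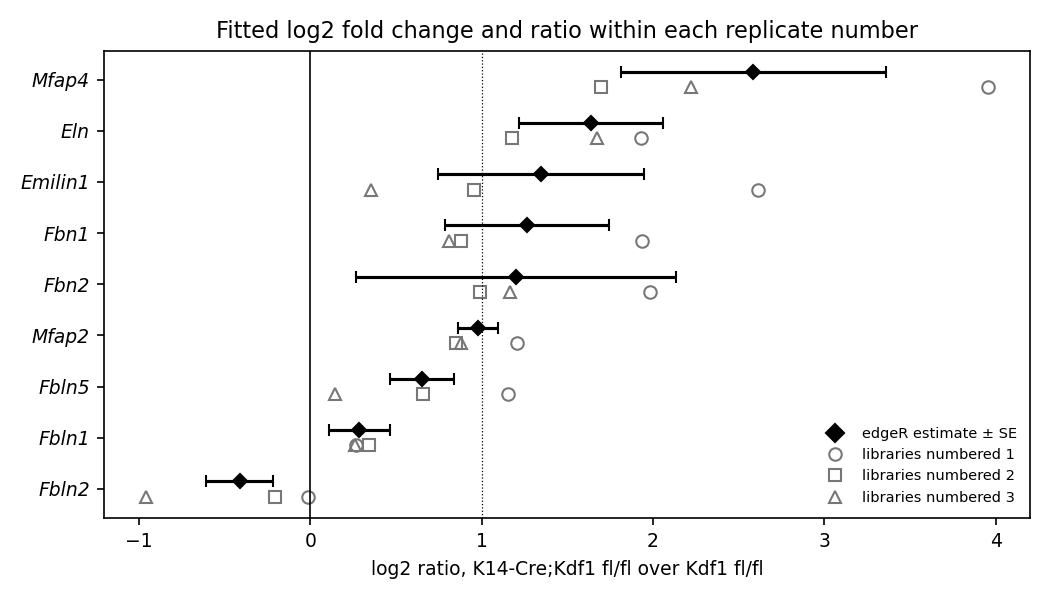
Log2 ratio of cKO over control for the 9 members tested, with the edgeR estimate and its SE as filled diamonds and the ratio within each replicate number as open symbols; the dotted line marks 1. Mfap4 leads with 2.59, Mfap2 has the narrowest error at 0.12, and Fbln2 alone is negative with −0.41.

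The variation within groups separated the members into a variable and a steady set. The pooled within-group SD of log2 CPM was 1.499 for Fbn2, 1.23 for Mfap4, 0.99 for Emilin1, 0.78 for Fbn1 and 0.65 for Eln. It was 0.27 for Fbln2, 0.26 for Fbln5, 0.23 for Fbln1 and 0.11 for Mfap2. In cKO replicate 1 all 9 members deviated upward from the cKO mean, and in cKO replicate 3 all 9 deviated downward, by a median of −0.60. In control replicate 2, Mfap4, Fbn1, Fbn2 and Emilin1 deviated upward by 0.71 to 1.79, and no other member by more than 0.24.

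Control replicate 2 and cKO replicate 3 were close in the summed TPM of mesenchyme markers, at 1272 and 1163. The markers themselves were not matched, since Vim made up 888.18 and 764.7 TPM of these sums, and control replicate 2 was above cKO replicate 3 in 4 of the 10. Prrx1 and Twist1, transcription factor genes of mesenchyme, were at 15.9 and 22.1 TPM in control replicate 2 and at 31.3 and 51.5 TPM in cKO replicate 3. Between these libraries Mfap4, Fbn1, Fbn2, Emilin1 and Fbln2 were higher in the control one, with log2 ratios of cKO over control from −0.11 for Mfap4 to −1.84 for Fbn2. Mfap2, Eln, Fbln1 and Fbln5 were higher in the cKO one, with log2 ratios of 0.75, 0.75, 0.51 and 0.29. With 1 library of each genotype there is no test of these differences.

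**Figure D4:**
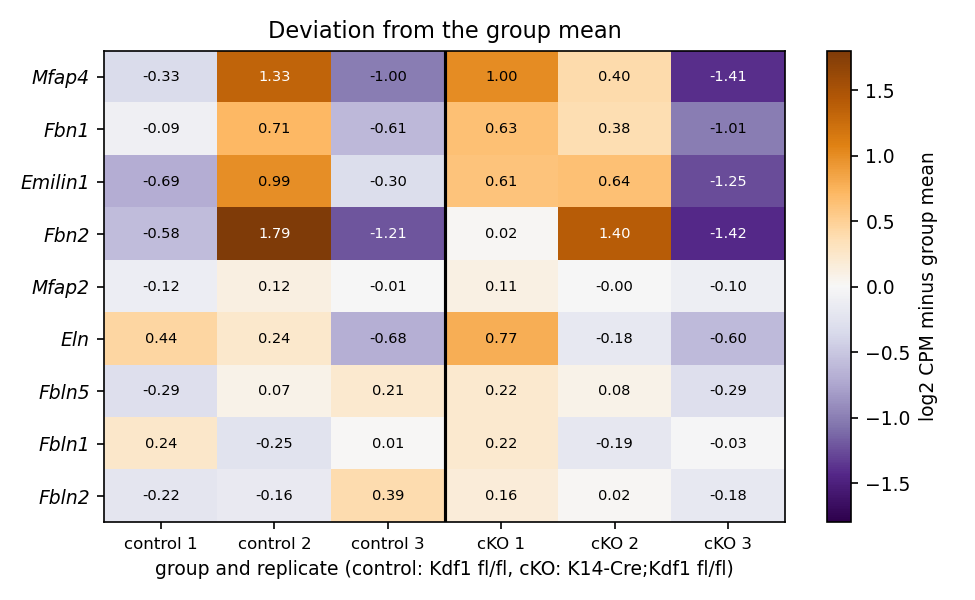
Deviation of each library from its group mean in log2 CPM for the 9 members tested, orange above and purple below the mean. Control replicate 2 stands out for Mfap4, Fbn1, Emilin1 and Fbn2 (0.71 to 1.79), and cKO replicate 3 is below the mean in every row.

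Markers of tissue outside the epithelium had mostly positive log2 fold changes, and the number that met the criterion depended on the fit. In edgeR's quasi-likelihood test 1 of 10 dental mesenchyme markers was called, Twist1, and 0 of 8 endothelial, 0 of 8 mural cell and 0 of 6 macrophage markers. In that test 0.142% of all genes were called as higher in cKO. At an unadjusted p under 0.05 the counts were 9, 4, 3 and 3, against 24.5% of all genes. DESeq2 called 6, 1, 1 and 2 markers of these lists in the same order, where it called 5.05% of all genes higher. With the block edgeR called 7, 0, 1 and 0 of them, where it called 4.16% of all genes higher. All these marker calls were as higher in cKO. All 10 dental mesenchyme markers had a positive log2 fold change, with a median of 1.49, and Vim, the intermediate filament gene of mesenchyme and the most abundant, was at 601 ± 249.5 TPM in control and 985 ± 231 TPM in cKO (SD, n = 3 per group). Summed TPM of 8 endothelial markers ran from 152 to 207 in control and from 195 to 602 in cKO, and 8 of 8 had a positive log2 fold change, with Cdh5, the endothelial cadherin, highest at 34.3 to 57.7 and 43.2 to 159 TPM. Of 8 mural cell markers 7 were positive, and their summed TPM was 217 to 312 in control and 253 to 1007 in cKO, with smooth muscle actin Acta2 at 488 TPM in cKO replicate 1 and at most 126 TPM in any other library. Of 6 macrophage markers 5 were positive, with a summed TPM of 33.1 to 65.6 in control and 53.3 to 210 in cKO. C1qa, a complement gene of macrophages, led them at 17.99 ± 9.05 TPM in control and 50.5 ± 32.2 TPM in cKO.

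Fibrillar collagens moved unevenly beside these lists. Summed TPM of the 5 collagen genes was 1105 to 6678 in control and 3271 to 4380 in cKO, and 3 of 5 were positive. Col1a1, the most abundant, had its highest value of 4161 TPM in control replicate 2 and its lowest of 628 TPM in control replicate 1. Col3a1 ran from 202 to 720 CPM in control and from 733 to 3274 CPM in cKO, without overlap. In TPM its groups overlapped, with cKO replicate 3 at 233 and control replicate 2 at 247. Of the 5 collagens edgeR called 0 (2 at an unadjusted p under 0.05). DESeq2 called Col3a1 and Col5a2, and edgeR with the block Col3a1, all as higher in cKO. The shares of all genes called are those given above. Skeletal muscle was close to absent, with a summed TPM of at most 7.89 in any library, Myod1 at 0 in 4 of 6 libraries, and Acta1 at no more than 2.58 TPM. Cartilage markers summed to 36.8 to 46.0 TPM in control and 32.0 to 36.9 TPM in cKO, most of it Sox9, which was lower in every cKO library. Col2a1, a cartilage collagen, and Acan, the aggrecan gene, were instead higher in every cKO library, at 6.81 to 9.11 against 10.5 to 12.6 TPM and at 0.03 to 0.16 against 0.24 to 1.74 TPM. Of the 3 cartilage markers tested, edgeR called 0 (3 at an unadjusted p under 0.05), and DESeq2 and edgeR with the block called 1, Acan. Matn1 was at 0 in 5 of 6 libraries. The part of any of these tissues in the levels of the microfibril genes was not tested.

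Beyond the 10 members, 35 genes that act on the same fibres were listed by role, and 32 of them were tested. Like the marker lists, this list was made with earlier results of these data known. In edgeR's quasi-likelihood test 0 of 32 met the criterion, against 0.432% of all genes, and 14 had an unadjusted p under 0.05, against 24.5% of all genes. DESeq2 called 7, 6 higher and 1 lower in cKO, where it called 5.05% of all genes higher and 1.88% lower. In edgeR with the replicate block 6 were called, 5 higher and 1 lower, against 4.16% and 1.92% of all genes. The median log2 fold change of the 32 was 0.59, and 24 were positive, as were 49.5% of all genes.

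The proteases that degrade elastin included the largest differences on this list, those of Mmp9 and Ctsk. Of the 4 tested, edgeR called 0, and DESeq2 and edgeR with the block each called 3, all as higher in cKO. These fits called 0.142%, 5.05% and 4.16% of all genes as higher, in that order. Mmp9, a gelatinase, was at 46.1, 33.6 and 15.6 CPM in control and at 761, 148 and 104 CPM in cKO replicates 1 to 3, without overlap. The log2 fold change of Mmp9 was 3.41 (SE 0.84), and 2.00 without cKO replicate 1. Ctsk, the cathepsin of osteoclasts, went from 21.9 ± 7.53 to 138 ± 123 CPM (SD, n = 3 per group). The log2 fold change of Ctsk was 2.65 (SE 0.63), and 1.63 without cKO replicate 1. Mmp2, a gelatinase of stromal cells and the most abundant of the proteases in control, was at 69.1, 201 and 62.7 CPM in control and at 595, 431 and 239 CPM in cKO, and its fitted log2 difference was 1.92 (SE 0.53), or 2.67 without control replicate 2. Adjusted p values were 0.0841, 0.0808 and 0.0993 for Mmp9, Ctsk and Mmp2 in edgeR, 0.00525, 6.91e-05 and 0.00151 in DESeq2 and 0.0141, 0.0324 and 0.0328 in edgeR with the block, each with Benjamini-Hochberg adjustment. Elane and Mmp12 were not tested, and Elane, the neutrophil elastase gene, reached 2.66 CPM in cKO replicate 1.

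Among the lysyl oxidases, which cross-link elastin and collagen, Loxl1 and Loxl4 differed in opposite directions. Loxl1, the form tied to elastic fibres, was at 11.7, 12.8 and 7.52 CPM in control and at 86.8, 37.4 and 22.3 CPM in cKO replicates 1 to 3, without overlap. For Loxl1 the log2 fold change was 2.19 (SE 0.50), or 1.5 without cKO replicate 1, and the adjusted p was 0.0761 in edgeR, 0.000158 in DESeq2 and 0.0186 in edgeR with the block. Loxl4 was at 4.21, 33.1 and 27.7 CPM in control and at 2.78, 2.39 and 8.17 CPM in cKO, and the groups overlapped through control replicate 1. For Loxl4 the log2 fold change was −2.28 (SE 0.80), −3.05 without cKO replicate 3 and −1.48 in limma on log2(TPM + 1), with an adjusted p of 0.146 in edgeR, 0.0157 in DESeq2 and 0.0854 with the block. Loxl2, the most abundant by control TPM (57.4 ± 25.2 TPM, SD, n = 3), was at −0.19 on that scale (SE 0.53), where edgeR gave an adjusted p of 0.851.

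The fibulin relatives were also split. Hmcn1, a giant fibulin-like protein of basement membranes, went from 4.82 ± 2.28 to 12.7 ± 5.98 CPM (SD, n = 3 per group). This was 1.40 (SE 0.50) on the log2 scale, and the adjusted p was 0.151 in edgeR, 0.0465 in DESeq2 and 0.0204 in edgeR with the block. Fbln7, first found in teeth, was at 4.21, 40.0 and 32.3 CPM in control and at 3.35, 11.7 and 11.1 CPM in cKO replicates 1 to 3. Its log2 fold change was −1.55 (SE 0.79), and the adjusted p was 0.273 in edgeR, 0.136 in DESeq2 and 0.0436 in edgeR with the block. Efemp2, or fibulin-4, led this role by control TPM at 110 ± 22.6 (109.55 before rounding, SD, n = 3), and its log2 fold change was 0.21 (SE 0.19), where edgeR gave an adjusted p of 0.534.

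The remaining roles held 1 call between them. For Adamtsl4, a microfibril-binding protein, the log2 fold change was 1.19 (SE 0.40), and the adjusted p was 0.135 in edgeR, 0.0469 in DESeq2 and 0.0945 with the block, and the value was 0.64 without cKO replicate 1. Adamts17, the most abundant of this role, was at −0.13 (SE 0.13), where edgeR gave an adjusted p of 0.576. None of the latent TGF-beta binding proteins, which anchor the growth factor to microfibrils, was called, with Ltbp3 highest at 172 ± 28.3 TPM in control. Its log2 fold change was −0.44 (SE 0.17), where edgeR gave an adjusted p of 0.171. Emilin2, the most abundant of the emilin relatives, was at 0.57 (SE 0.72, adjusted p = 0.660 in edgeR), and its libraries numbered 2 were the highest of each group at 94.9 and 122 CPM, as in Fbn2. Ctsa, of the elastin receptor complex, was at 0.18 (SE 0.12), where edgeR gave an adjusted p of 0.393.

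**Figure D5:**
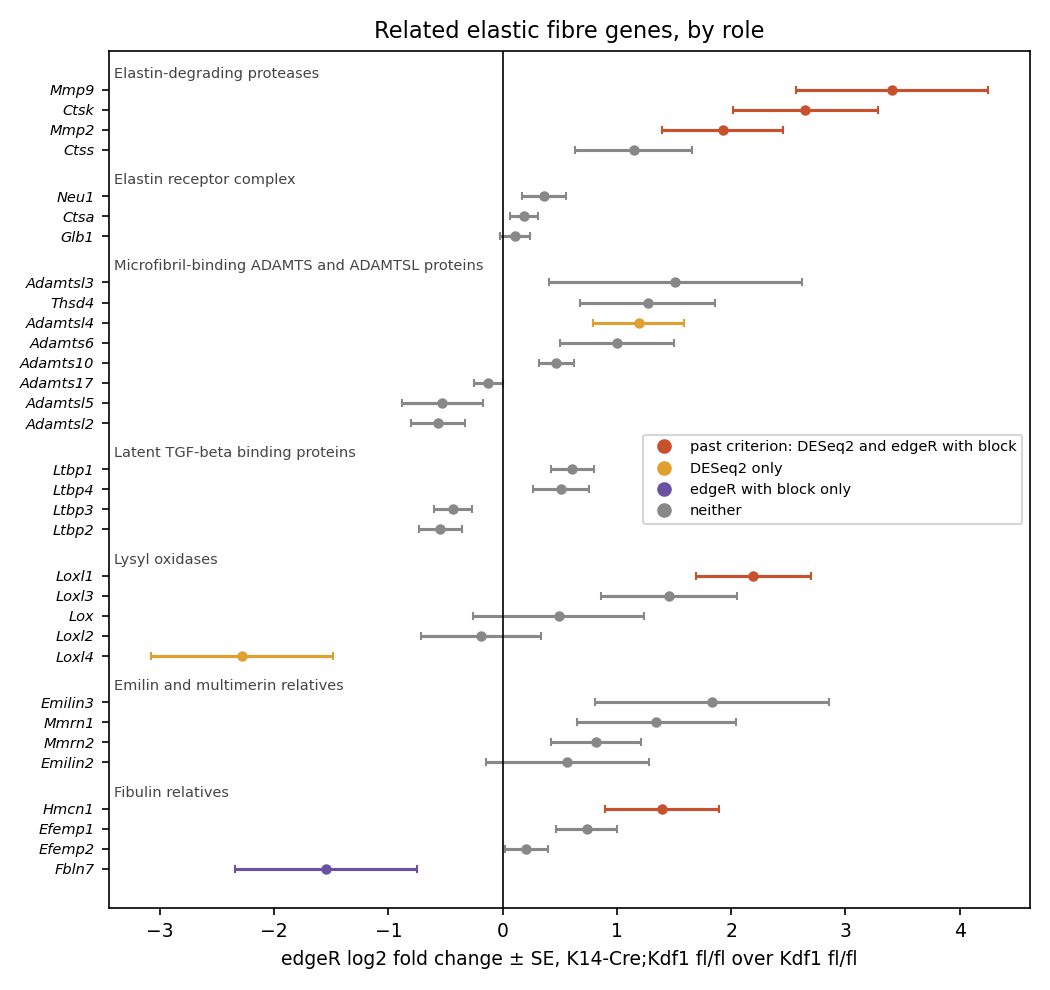
edgeR log2 fold change with SE for the 32 related genes tested, grouped by role, with colours for the fits in which a gene met the criterion. Mmp9, Ctsk and Loxl1 lead with 3.41, 2.65 and 2.19, and Loxl4 is lowest with −2.28.

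The genes outside the list whose profile over the 6 libraries was most like the members' mean were Cfp, Hfe, Rcsd1, Tspan2 and Phldb2, out of 11589 genes with at least 5 CPM on average. Pearson's r between log2 CPM and the mean of the scaled member profiles was 0.996 to 0.998, over 6 libraries in 2 groups, so that a difference between the groups enters it. Cfp, the gene of properdin, was at 4.02, 5.27 and 4.04 CPM in control and at 14.9, 10.8 and 6.13 CPM in cKO replicates 1 to 3. Among the members themselves, r with the same mean ran from 0.971 for Mfap4 and 0.955 for Fbn1 to 0.485 for Fbln1 and −0.42 for Fbln2.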

How the data were processed

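RNA-seq libraries of E18.5 IEE were compared, 3 of control (Kdf1 fl/fl) and 3 of cKO (K14-Cre;Kdf1 fl/fl) embryos. The submitters' processing notes name BWA 0.7.12, Picard 2.6.0 and StringTie without a role, and the genome build is not given in the sources used here. The authors deposited estimated counts per gene, of which 10.9% to 11.5% per library were not whole, and which were rounded here. The deposited TPM values are the authors' and were used for levels between genes, and the deposited FPKM values and group means were not used.

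In R 4.3.3, edgeR 4.0.16 (filterByExpr, TMM, robust quasi-likelihood fits, two-sided F-tests, Benjamini-Hochberg) was run on the 14131 genes kept. The standard error is the absolute log2 fold change over the square root of F. The log2 CPM values used a prior count of 2. Alternatives were DESeq2 1.42.0, limma 3.58.1 on log2(TPM + 1) and log2(TPM + 0.1) for genes with at least 1 TPM in 3 libraries, other scalings and filters, the replicate block and leaving out each library. The procedure was also run on simulated counts, and nothing is read from that run here.

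A count of 0 allows 3 counts, or 0.182 to 0.198 CPM, which covers counting error only. Between libraries of the same group, chi-square per degree of freedom over genes was 35.4 to 77.3, and no library was treated as a duplicate. Same-numbered libraries deviated together across genes (r = 0.135, 0.324 and 0.499 for numbers 1, 2 and 3), only weakly so for number 1. The numbers were read as pairs from this check alone, since the labels do not say what a number marks. Of the 9 members tested, 7 were below the group mean in control replicate 1, while 9 were above it in cKO replicate 1. The replicate block and the ratios within numbers rest on this reading.

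Members, lists and motifs were chosen with earlier results of these data known. All members were named, with related genes called in edgeR, DESeq2 or the block, the highest gene of each role by control TPM and of each marker list by mean TPM, and the 5 genes most like the members' mean. Other markers and related genes named above, among them Barx1, Prrx1, Col3a1 and Elane, fall outside this rule. They were named with their values in view.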

Additional observations from a re-analysis of the deposited data

How the results depend on the processing

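The 9 members tested kept their sign in all 126 values from 14 alternatives each, and each value moved by less than that gene's pooled within-group SD. This bound is wide for variable members, with an SD of 1.499 for Fbn2, and the alternatives reuse the same libraries. Their median log2 fold change of 1.20 ran from 0.93 to 1.69 when 1 library was left out. The number of genes called among all genes, 61 (20 higher, 41 lower), was 980 in DESeq2 (714 higher, 266 lower), 860 with the replicate block (588 higher, 272 lower), 103 without a filter on low counts, 9 with library size alone (2 higher, 7 lower), 7 with DESeq2's size factors (1 higher, 6 lower) and 6 with at least 10 counts in every library. It ran from 1 to 465 when 1 library was left out: 465 without cKO replicate 3, 16 without control replicate 2 and 1 without each of the others. The count of members called, 0 in edgeR, was 3 in DESeq2, 4 with the replicate block, and 1 (Mfap2) in limma on log2(TPM + 1), in limma on log2(TPM + 0.1) and with no fold criterion. It ran from 0 to 1 when a library was left out, the 1 being Mfap2 without cKO replicate 3. The count of related genes called, 0 in edgeR, was 7 in DESeq2 and 6 with the replicate block, and ran from 0 to 2 when a library was left out, the 2 being Loxl1 and Ctsk without cKO replicate 3. Among the marker lists the block moved the count of calls from 1 to 7 for dental mesenchyme, from 1 to 4 for dental epithelium, and from 0 to 1 each for fibrillar collagens, mural cells and cartilage. The cause of these differences was not tested. The fold of Mfap4, Fbn2 and Emilin1 moved by 1.96, 2.75 and 1.59 times without control replicate 2, and that of Fbn2 by 1.91 times without cKO replicate 2. Depth limits Mfap5, which had 8 counts in control and 38 in cKO in all.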
